A study of Mus musculus with 20 samples.

Results

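The 10 genes described here mark or build the cross-presenting type 1 conventional dendritic cell. They were followed through mouse pancreatic tumours, in leukocytes sorted from the tumour and in bulk tumour, in hosts with and without interleukin-33. The members are Xcr1, Clec9a, Batf3, Irf8, Tlr3, Cadm1, Wdfy4, Naaa, Flt3 and Zbtb46. They were found by exact match of the gene symbol in the raw count table, which gave 10 of 46983 genes, each on 1 row. All 10 were expressed above the filter on low counts in each of the 5 comparisons below.

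KPC pancreatic cancer cells, a mouse tumour line, were grown in culture and injected into the pancreas of C57BL/6 mice, and the untreated tumours were taken at 2 weeks. The hosts were wild type (WT) or IL33-/- (IL33KO), and 5 tumours per genotype were stated. Leukocytes were enriched by magnetic selection for the surface protein CD45, and both this sorted fraction and bulk tumour were sequenced as polyA RNA. This gave 5 libraries in each of 4 groups, sorted or bulk from each host. The host alone carried the deletion as labelled, so the injected cells were the same kind in all 4 groups, and the labels do not name which KPC line was used. Neither do they tie libraries to mice or say whether sorted and bulk RNA came from the same tumours, so a p value speaks only of how much these libraries vary.

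Type 1 conventional dendritic cells take up dying cells and present their antigens on MHC class I to CD8 T cells, the step called cross-presentation. Batf3 and Irf8 act together to establish the lineage, Xcr1 and Clec9a are its most restricted surface receptors, and the growth factor receptor encoded by Flt3 sustains its supply from precursors. Other members are shared to different degrees, among them Zbtb46 with other conventional dendritic cells. Irf8 is shared with B cells, plasmacytoid dendritic cells and macrophages, Wdfy4 with B cells, and Tlr3 and Cadm1 with epithelial and stromal cells. This account is not complete, and it leaves out Naaa.

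The counts assigned to genes, in units of 1000000, were 51.3 to 81.0 per library, with 21158 to 23126 genes detected. At this depth 3 counts corresponded to 0.033 to 0.069 CPM (counts per 1000000 counts), and the lowest count of any member in any library was 39 (Xcr1, bulk IL33KO 3). The targeted gene did not separate the genotype labels. Il33 lay at 5.76 to 20.6 CPM in sorted WT and at 14.3 to 25.7 CPM in the sorted libraries labelled IL33KO. In bulk tumour it lay at 53.6 to 66.7 CPM in WT (median 56.3) and at 37.0 to 56.3 CPM in IL33KO (median 46.3), lower in median but with overlapping ranges, and whole-gene counts cannot show a deletion of part of a gene. The label is therefore used as given. Some libraries stood apart in composition. The summed level of 6 pancreatic acinar genes was 40784 CPM in sorted IL33KO 3 against 599 to 6882 CPM in the other sorted libraries. In bulk tumour it was 8501 CPM in WT 5 and 1493 CPM in IL33KO 3, against 24.0 to 152 CPM in the others.

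The genes lie on 7 chromosomes of the GRCm38 (mm10) assembly, in the GENCODE annotation. Xcr1 lies on chromosome 9 from 123852315 to 123862029 on the minus strand, Clec9a on chromosome 6 from 129408862 to 129424763 on the plus strand, and Batf3 on chromosome 1 from 191097847 to 191108945 on the plus strand. Xcr1, Batf3 and Naaa overlap no other annotated gene. Clec9a shares strand and span with Clec1b, and Wdfy4 overlaps Lrrc18 on the opposite strand. The library kit keeps strand, but how strand was treated in counting is not given in the sources used here, so reads from these overlaps could be shared.

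The promoters of 3 genes are shown, namely the receptors Xcr1 and Clec9a, which define the lineage in the data below, and Zbtb46, the only one of the matched members with a searched motif. RefSeq (GRCm38.p6) start sites were matched for 9 of the 10 members, with 10 promoters, since Irf8 has 2 and Cadm1 was not matched. Each sequence is the 250 bases before the start, written 5′ to 3′ on the gene's strand, and capitals mark the AP-1 motif. The Xcr1 promoter is chr9:123862030-123862279 (minus strand), that of Clec9a is chr6:129408612-129408861 (plus strand), and that of Zbtb46 is chr2:181424389-181424638 (minus strand), the last lying inside the longer GENCODE gene.
Xcr1: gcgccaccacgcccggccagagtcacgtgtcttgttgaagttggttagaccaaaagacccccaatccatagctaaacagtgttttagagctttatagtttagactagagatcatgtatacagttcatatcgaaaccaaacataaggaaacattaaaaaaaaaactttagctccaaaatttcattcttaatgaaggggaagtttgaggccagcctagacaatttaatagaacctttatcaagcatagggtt
Clec9a: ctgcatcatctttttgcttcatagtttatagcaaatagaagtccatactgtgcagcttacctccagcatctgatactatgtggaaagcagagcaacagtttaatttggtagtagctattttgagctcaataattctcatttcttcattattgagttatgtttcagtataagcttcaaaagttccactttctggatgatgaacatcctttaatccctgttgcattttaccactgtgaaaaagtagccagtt
Zbtb46: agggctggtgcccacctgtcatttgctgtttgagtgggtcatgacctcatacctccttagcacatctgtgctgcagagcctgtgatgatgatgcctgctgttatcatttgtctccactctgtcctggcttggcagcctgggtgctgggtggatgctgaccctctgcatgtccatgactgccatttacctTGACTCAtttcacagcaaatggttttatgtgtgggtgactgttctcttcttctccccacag

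Both strands were searched for the AP-1 motif TGANTCA, the kind of site that Batf-family factors bind with Jun partners, for the interferon response motif GAAANNGAA and for the Ets and Irf composite motif GGAANNGAA. The last 2 patterns can overlap one another. The AP-1 pattern was found upstream of the Zbtb46 start, where the capitals stand, and in 0 of the other 9 member promoters, against 6.75% of 32851 promoters of the same length. The interferon response pattern was in 0 of 10, against 7.13%, and the composite pattern in 0 of 10, against 6.99%. Any of the 3 patterns was present in 19.2% of all promoters. These matches describe the letters of these windows only.

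Per kilobase of exon, the order of the levels in sorted WT libraries ran from Naaa, which encodes a lysosomal acid amidase, to Zbtb46, a repressor that marks conventional dendritic cells. Naaa stood at 106 ± 5.49 CPM per kb, Irf8 at 42.9 ± 4.14, Wdfy4 at 17.3 ± 3.14 and Batf3 at 15.5 ± 2.44 (mean ± SD, n = 5 here and below). Clec9a followed at 5.55 ± 0.519, Tlr3 at 4.34 ± 0.657, Cadm1 at 4.07 ± 0.965, Flt3 at 3.50 ± 0.762, Xcr1 at 3.27 ± 0.783 and Zbtb46 at 1.12 ± 0.296 CPM per kb. The ranges of neighbours overlapped between Wdfy4 and Batf3 and along the run from Clec9a to Xcr1, so the order within these runs is not resolved. The sorted libraries labelled IL33KO gave the same order of means.

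Bulk tumour had another order. Naaa was again the highest at 18.9 ± 3.31 CPM per kb in bulk WT, but Tlr3 (10.6 ± 2.19) and Cadm1 (9.82 ± 2.28) came next, above Irf8 (5.82 ± 2.29). Batf3 was at 1.97 ± 1.60, Wdfy4 at 1.77 ± 0.329, Clec9a at 0.851 ± 0.120, Xcr1 at 0.672 ± 0.242, Zbtb46 at 0.665 ± 0.158 and Flt3 at 0.403 ± 0.152 CPM per kb. The ranges of neighbours overlapped everywhere except between Naaa and Tlr3 and between Wdfy4 and Clec9a.

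**Figure D1:**
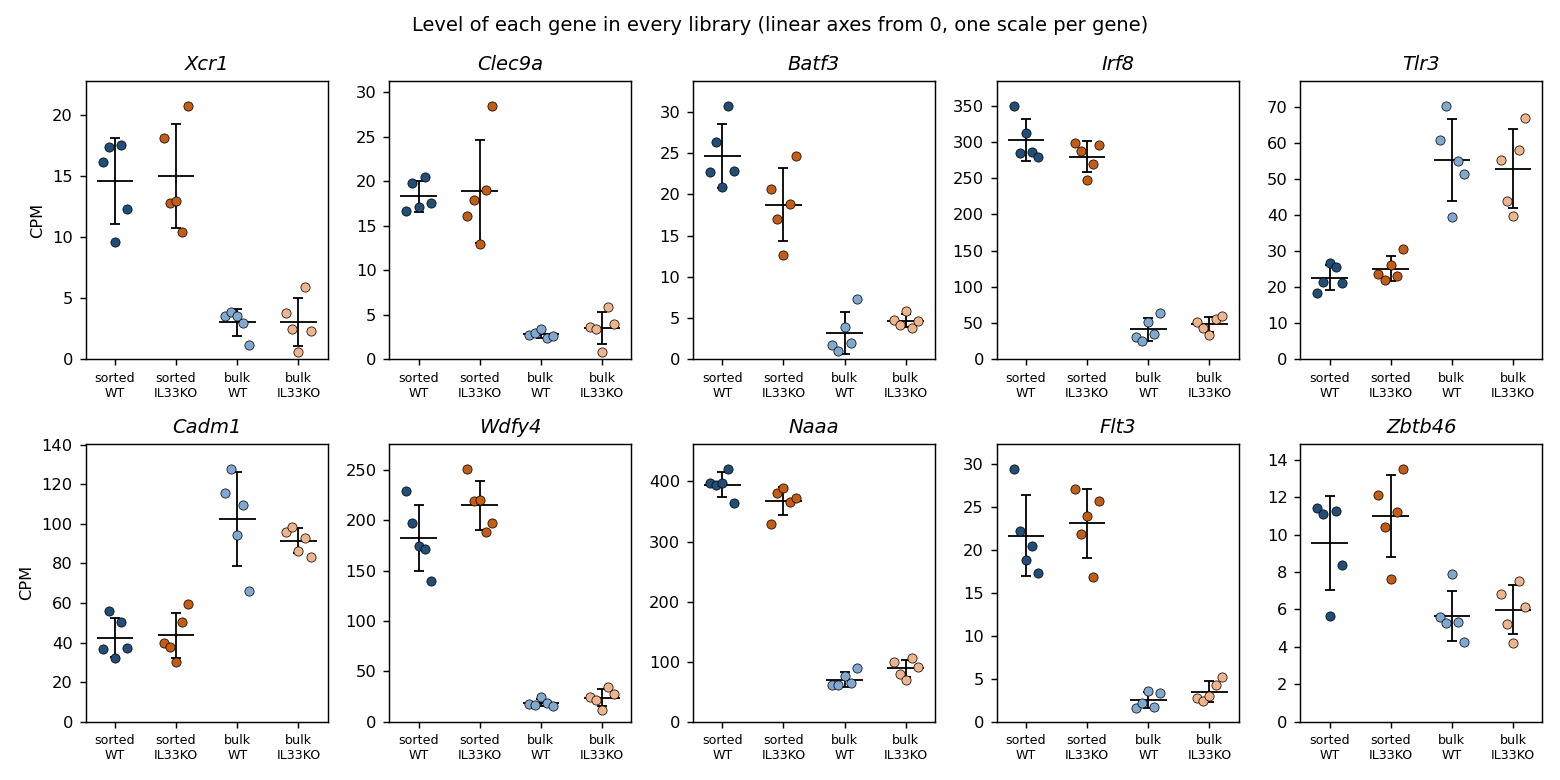
Level of each gene in every library, in CPM on linear axes that start at 0, with one scale per gene. Points are libraries in order of replicate, horizontal lines are group means and bars are SD (n = 5). In 8 panels the sorted libraries lie above the bulk libraries in mean, and for Tlr3 and Cadm1 they lie below.

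The first comparison asks where the transcripts are found, in the leukocyte fraction or in the rest of the tumour. Of the members, 8 were higher in sorted leukocytes than in bulk tumour and 2 were lower, in both host genotypes, and all 10 passed the test in each (edgeR quasi-likelihood test, Benjamini-Hochberg adjusted over all genes). The background is high here: 30.9% of 17185 genes were called higher in sorted cells and 34.9% lower in WT hosts, and 31.8% and 32.4% of 17231 genes in IL33KO hosts. The median log2 fold change of the members was 2.55 in WT and 2.18 in IL33KO hosts, against −0.050 and 0.015 over all genes tested. In bulk libraries, fewer cells of a type and less RNA per cell cannot be told apart.

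Xcr1, the receptor for the chemokine XCL1, was at 16.1, 17.4, 9.61, 17.5 and 12.3 CPM in sorted WT libraries 1 to 5 and at 3.53, 3.82, 3.51, 2.95 and 1.15 CPM in bulk WT. It was at 18.1, 12.8, 12.9, 10.4 and 20.7 CPM in the sorted libraries labelled IL33KO and at 3.79, 2.42, 0.609, 5.91 and 2.31 CPM in the bulk ones. The sorted and bulk values did not overlap in either host, and bulk IL33KO 3 held the lowest. The difference was 4.69-fold in WT (log2 2.23 ± 0.31 SE, adjusted p = 7.41e-05) and 4.98-fold in IL33KO hosts (2.32 ± 0.47, adjusted p = 0.00129).

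Clec9a encodes the receptor for actin filaments exposed on dead cells. It was at 16.6, 19.8, 17.1, 20.4 and 17.5 CPM in sorted WT and at 2.67, 2.98, 3.39, 2.36 and 2.61 CPM in bulk WT. The libraries labelled IL33KO held 16.1, 17.9, 12.9, 19.0 and 28.4 CPM when sorted and 3.65, 3.40, 0.750, 5.85 and 3.90 CPM in bulk. The lowest bulk value was again IL33KO 3, and the sorted and bulk groups did not overlap. The fold was 6.31 in WT (log2 2.66 ± 0.14, adjusted p = 1.55e-07) and 5.37 in IL33KO hosts (2.43 ± 0.43, adjusted p = 0.000496).

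Batf3, the AP-1 family factor that the lineage needs, was at 22.7, 26.3, 20.9, 30.7 and 22.8 CPM in sorted WT and at 1.76, 0.945, 3.88, 1.90 and 7.28 CPM in bulk WT. In libraries labelled IL33KO it was at 20.7, 17.0, 12.7, 18.8 and 24.7 CPM when sorted and at 4.76, 4.18, 5.89, 3.79 and 4.66 CPM in bulk. Bulk WT was the most uneven group of this gene, with WT 5 at the top and WT 2 at the bottom. The fold was 7.61 in WT (log2 2.93 ± 0.47, adjusted p = 0.000209) and 4.04 in IL33KO hosts (2.01 ± 0.19, adjusted p = 4.19e-06). The 2 folds were not shown to differ, as the interaction test below gives.

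Irf8, the partner factor, was at 349, 285, 313, 286 and 279.6 CPM in sorted WT against 30.7, 25.0, 51.7, 34.1 and 63.8 CPM in bulk WT. The libraries labelled IL33KO held 299, 287, 248, 270.1 and 296 CPM when sorted and 51.0, 42.8, 33.0, 55.0 and 59.0 CPM in bulk. The groups were far apart, with log2 fold changes of 2.84 ± 0.24 (adjusted p = 2.62e-06) and 2.54 ± 0.15 (adjusted p = 2.72e-07). Wdfy4, a protein required for cross-presentation of cell-bound antigen, had the largest fold of the 10 in both hosts. It ran from 140.2 to 229 CPM in sorted WT and from 15.3 to 24.4 CPM in bulk WT (9.49-fold, log2 3.25 ± 0.16, adjusted p = 1.52e-07). In IL33KO hosts it ran from 188 to 251 CPM sorted and from 11.5 to 34.3 CPM bulk (9.07-fold, log2 3.18 ± 0.25, adjusted p = 1.33e-06).

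Flt3 ran from 17.3 to 29.4 CPM in sorted WT and from 1.56 to 3.60 CPM in bulk WT, a log2 fold change of 3.07 ± 0.26 (adjusted p = 2.88e-06). It ran from 16.8 to 27.1 and from 2.36 to 5.16 CPM in IL33KO hosts (2.72 ± 0.23, adjusted p = 2.53e-06). Naaa lay at 363 to 421 CPM in sorted WT and 60.4 to 88.9 CPM in bulk WT (2.44 ± 0.12, adjusted p = 1.52e-07). In IL33KO hosts it lay at 329 to 388 and 70.0 to 106 CPM (2.04 ± 0.12, adjusted p = 2.06e-07). These genes were thus higher in the leukocyte fraction in every library pair of the same host.

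Zbtb46 differed least. It was at 11.4, 11.1, 5.65, 11.3 and 8.40 CPM in sorted WT and at 5.59, 5.26, 7.88, 5.32 and 4.24 CPM in bulk WT, and these groups overlapped through sorted WT 3. The libraries labelled IL33KO held 12.1, 10.4, 7.64, 11.2 and 13.5 CPM sorted and 6.83, 5.21, 4.22, 7.52 and 6.11 CPM in bulk. The folds were 1.63 in WT (log2 0.71 ± 0.22, adjusted p = 0.0143) and 1.84 in IL33KO hosts (0.88 ± 0.19, adjusted p = 0.00193).

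Tlr3 and Cadm1 went the other way. Tlr3, the endosomal receptor for double-stranded RNA, was at 18.4, 21.5, 26.8, 25.5 and 21.0 CPM in sorted WT against 60.9, 70.2, 39.4, 54.9 and 51.3 CPM in bulk WT. It was at 23.5, 22.0, 26.1, 23.1 and 30.7 CPM against 55.4, 43.8, 39.9, 58.1 and 67.1 CPM in IL33KO hosts. The sorted and bulk values did not overlap, and Tlr3 was 2.53-fold lower in sorted cells of WT (log2 −1.34 ± 0.17, adjusted p = 4.09e-05) and 2.10-fold lower in those of IL33KO hosts (−1.07 ± 0.15, adjusted p = 9.58e-05).

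Cadm1, an adhesion molecule that binds CRTAM on activated T cells, was at 36.8, 56.0, 32.4, 50.4 and 37.2 CPM in sorted WT against 115, 128, 94.1, 109 and 65.8 CPM in bulk WT. The IL33KO values were 40.0, 37.6, 30.3, 50.6 and 59.4 CPM sorted and 96.1, 98.2, 86.5, 93.0 and 83.3 CPM in bulk. Again no value crossed over, with Cadm1 2.50-fold lower in WT (log2 −1.32 ± 0.20, adjusted p = 0.000154) and 2.09-fold lower in IL33KO hosts (−1.07 ± 0.16, adjusted p = 0.000153).

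Marker lists of other cells give the scale of the sort. The 9 pan-leukocyte genes were all higher in sorted cells, with median log2 fold changes of 3.36 in WT and 3.12 in IL33KO hosts. The medians were −2.03 and −1.88 for 7 epithelial genes, −1.29 and −0.98 for 8 endothelial genes and −1.58 and −2.49 for 7 fibroblast genes. Sorted libraries still carried an epithelial list sum of 895 to 2339 CPM, against 5277 to 7874 CPM in bulk, and 0 of the 7 epithelial genes was at 0 in any library. The negative values of Tlr3 and Cadm1 fall within the range of these non-leukocyte lists, and which cells carried them was not tested.

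**Figure D2:**
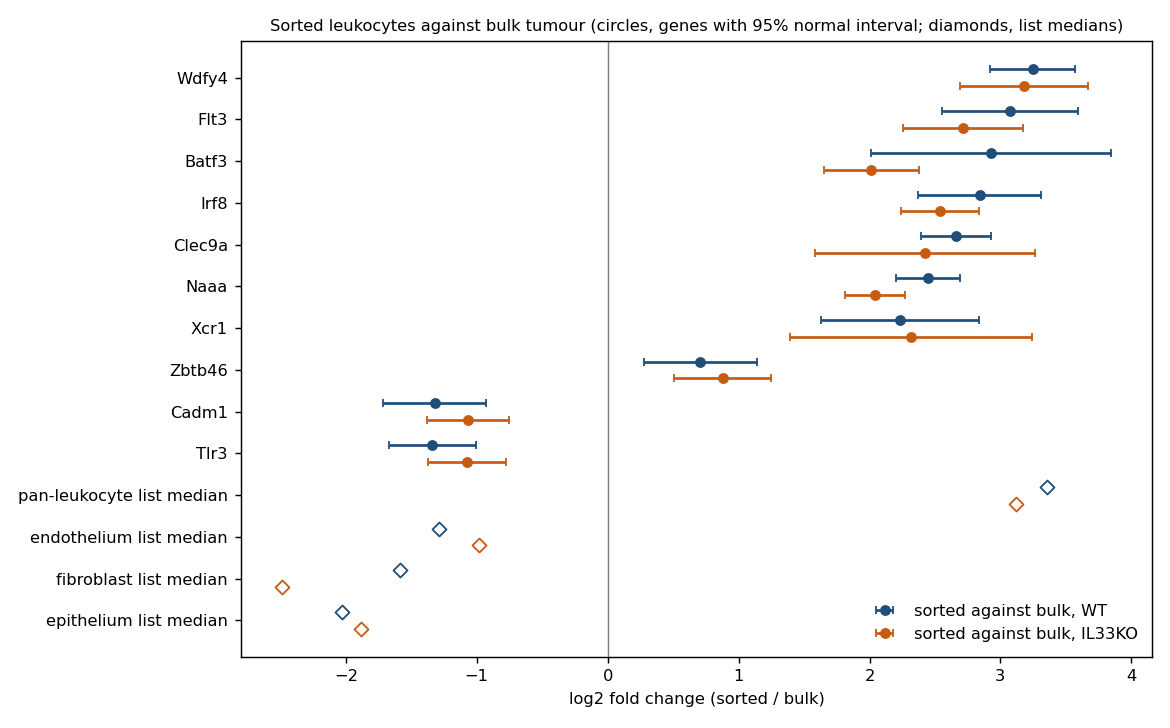
Log2 fold change of sorted leukocytes over bulk tumour for the 10 genes (circles, bars from the SE at 95%) and for 4 marker lists (open diamonds, medians), in WT hosts (blue) and IL33KO hosts (orange). Of the 10 genes, 8 lie right of 0, between 0.71 and 3.25, and Cadm1 and Tlr3 lie left of 0.

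The members were next set against the leukocyte content of each library. The measure was each gene's log2 CPM minus the mean log2 CPM of the 9 pan-leukocyte genes, compared between sorted and bulk libraries by a two-sided exact permutation test of 5 against 5 (252 assignments, smallest p = 0.00794), with Benjamini-Hochberg adjustment over 20 comparisons. Xcr1, Clec9a, Wdfy4 and Flt3 did not pass in either host. Their differences were −1.12, −0.77, −0.17 and −0.31 in WT (exact permutation p = 0.0873, 0.0397, 0.571 and 0.143, adjusted 0.134, 0.0661, 0.611 and 0.190) and −0.56, −0.52, 0.12 and −0.39 in IL33KO hosts (adjusted p = 0.373, 0.337, 0.611 and 0.181, exact permutation test). Without bulk WT 5 the WT differences of Xcr1 and Clec9a became −1.61 and −0.97 and passed (adjusted p = 0.0132 and 0.0244, exact permutation test). With Ptprc alone as the reference, Clec9a also passed in WT.

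Relative to the same genes, Tlr3 (−4.74 in WT, −4.20 in IL33KO), Cadm1 (−4.73, −4.25) and Zbtb46 (−2.73, −2.27) were lower in sorted than in bulk libraries, as were Naaa (−0.96, −1.09) and Irf8 (−0.50, −0.58). These 5 had no overlap between sorted and bulk values in either host and passed in both (adjusted p = 0.0144, exact permutation test). Which cells carried their transcripts, those of Zbtb46 and Naaa included, was not tested. With Ptprc alone Irf8 no longer passed in WT (−0.36, adjusted p = 0.138, exact permutation test). Batf3 passed in IL33KO hosts (−1.16, adjusted p = 0.0144, exact permutation test) and not in WT (−0.17, adjusted p = 0.611), and the difference between the hosts was not tested on this measure.

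The genes around the members followed the compartment in most cases. Of 16 other genes reported high in these cells, Plpp1 was not matched in the table and Cd207, at most 0.348 CPM, was below the filter. Of the remaining 14, 12 were higher in sorted cells in both hosts, among them Itgae, which encodes the CD103 integrin chain (log2 2.83 and 2.91), Btla (3.16 and 2.82) and Tlr11 (2.80 and 2.67). Cd24a and Ly75 were lower in sorted WT cells (−0.48 and −0.91, adjusted p = 0.0474 and 0.000406) and did not pass in IL33KO hosts (−0.16 and −0.30).

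All 6 genes of the ligands of the members' receptors and of chemokines were higher in sorted cells than in bulk tumour in both hosts. Flt3l, the ligand of the receptor encoded by Flt3, had log2 fold changes of 1.75 and 1.47, Xcl1, the ligand of the Xcr1 receptor, 2.76 and 2.41, and Crtam, the binding partner of Cadm1, 2.82 and 2.49. The chemokines Ccl4 (4.50 and 3.86) and Ccl5 (3.31 and 2.64) had larger values. Flt3l, Xcl1, Crtam and Ccl5 lay below the pan-leukocyte medians of 3.36 and 3.12, and Ccl4 lay above them. Which cells carried these transcripts was not tested. Among 15 transcription factors that pair with, precede or oppose Batf3 and Irf8, 12 were higher and 0 lower in each host. Id2, needed for the lineage, had log2 0.72 and 0.93, and Irf4, the related factor of type 2 dendritic cells, had 4.91 and 4.08. Cross-presentation genes were called higher in 7 of 11 in each host, including Syk, the kinase downstream of Clec9a (3.32 and 3.04), while Sec22b did not pass in WT (−0.029) and was lower in IL33KO hosts (−0.25, adjusted p = 0.00866). Of 7 genes of signalling from the Tlr3 receptor, 4 were higher in WT and 5 in IL33KO hosts, with Unc93b1, its chaperone, at 3.61 and 2.85 and the adaptor Ticam1 not passing (−0.012 and 0.33).

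The second comparison asks whether the loss of interleukin-33 in the host went with a change in these genes within sorted leukocytes. It did not reach the threshold for any member: 0 of 10 were called by edgeR, against 0.012% of 16731 genes (2 genes), and 0 of 10 had groups that did not overlap, against 3.69%. The unadjusted p was under 0.05 for 1 of 10 members, Batf3, and for 2156 of all genes. DESeq2 and limma voom called 476 and 400 genes, and 0 members. Log2 fold changes were positive in 7 members and negative in 3, with a median of 0.055 against 0.021 over all genes.

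Batf3 was at 24.7 ± 3.90 CPM in sorted WT and at 18.8 ± 4.45 CPM in sorted IL33KO libraries. Only sorted IL33KO 5, at 24.7 CPM, lay above the WT median of 22.8 CPM, and 4 of 5 lay below the lowest WT library. The log2 difference was −0.38 ± 0.17 (adjusted p = 0.385 by edgeR, 0.0913 to 0.632 over the alternatives). Irf8 went from 303 ± 29.2 to 280.0 ± 21.1 CPM (−0.10 ± 0.089, adjusted p = 0.678). The macrophage list, 9 genes that were all negative (median −0.23), summed to 10275 to 12669 CPM in sorted WT and 6103 to 9777 CPM in sorted IL33KO, without overlap. Its part in the values of Batf3 and Irf8 was not tested.

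The receptors of the lineage differed less in mean than Batf3, and that contrast between genes was not tested. Xcr1 was at 14.6 ± 3.49 CPM in sorted WT and 15.0 ± 4.26 CPM in sorted IL33KO, a log2 difference of 0.051 with 95% bounds, from the SE, of −0.39 and 0.49 (adjusted p = 0.950). Clec9a was at 18.3 ± 1.71 and 18.9 ± 5.82 CPM (0.058, bounds −0.30 and 0.42, adjusted p = 0.927). The IL33KO group spread more for Clec9a, from 12.9 CPM in replicate 3 to 28.4 CPM in replicate 5, and without replicate 5 its difference was −0.14 and that of Xcr1 −0.090. The counts of Batf3 per count of Clec9a ran from 1.22 to 1.504 in sorted WT and from 0.870 to 1.28 in sorted IL33KO, so that only WT 3 and IL33KO 1 crossed. This ratio was not tested.

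The remaining members did not pass either, with Wdfy4 the farthest from 0 among them. Wdfy4 was at 183 ± 33.1 CPM in sorted WT and 215 ± 24.3 CPM in sorted IL33KO (log2 0.25 ± 0.13, adjusted p = 0.466). B cell genes, which come from cells that also express Wdfy4 and Irf8, summed to 214 to 674 CPM in WT and 146 to 1118 CPM in IL33KO, and all 9 were present in every sorted library. Their part in the Wdfy4 value was not tested. Zbtb46 differed by 0.21 ± 0.22 (adjusted p = 0.731), Tlr3 by 0.16 ± 0.12 (0.617), Flt3 by 0.10 ± 0.17 (0.837), Cadm1 by 0.048 ± 0.20 (0.946) and Naaa by −0.091 ± 0.073 (0.643).

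None of the 53 tested genes of the pathway lists passed in sorted leukocytes. The 6 ligand and chemokine genes were all negative (median log2 −0.31), with Ccl4 at 253 ± 49.9 CPM in WT and 170.2 ± 54.6 CPM in IL33KO (−0.56 ± 0.21, adjusted p = 0.309) and Ccl5 at −0.39 ± 0.29 (0.608). Xcl1 was at −0.37 ± 0.40 and Flt3l at −0.15 ± 0.17. Of the 15 transcription factors, 10 were negative (median −0.14). Spi1, the Ets factor that pairs with Irf8, ran from 302 to 362 CPM in WT and from 242 to 277 CPM in IL33KO, without overlap (−0.37 ± 0.079, adjusted p = 0.151). Jund, an AP-1 partner, ran from 418 to 526.3 and from 148 to 345 CPM, also without overlap (−0.76 ± 0.20, adjusted p = 0.179). Unc93b1 was at −0.42 ± 0.10 (adjusted p = 0.173) and Sec22b at −0.24 ± 0.062 (0.176). The 14 other genes of the lineage were positive in 10 (median 0.092), with Ly75 at 0.58 ± 0.24 (edgeR adjusted p = 0.353). Cross-presentation genes were positive in 4 of 11 (−0.12) and genes of Tlr3 signalling in 3 of 7 (−0.044), against 53.7% of all genes.

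In bulk tumour 0 of 10 members were called, against 0% of 17258 genes, and 0 of 10 had groups that did not overlap, against 0.661%. At an unadjusted p under 0.05 there were 1098 genes and 1 member, Naaa, and DESeq2 called 52 genes and 0 members. Positive values were found in 7 members, with a median log2 of 0.26 against 0.0080 over all genes. Naaa was at 70.3 ± 12.3 CPM in bulk WT and 89.2 ± 14.3 CPM in bulk IL33KO (0.33 ± 0.14, adjusted p = 0.724 by edgeR).

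Batf3 had the largest bulk difference, 3.15 ± 2.55 CPM in WT and 4.65 ± 0.793 CPM in IL33KO (log2 0.56 ± 0.46, adjusted p = 0.739). Flt3 followed at 0.49 ± 0.31, Wdfy4 at 0.33 ± 0.24, Clec9a at 0.30 ± 0.39 and Irf8 at 0.22 ± 0.25, while Zbtb46 was at 0.066 ± 0.20, Xcr1 at −0.016 ± 0.50, Tlr3 at −0.082 ± 0.17 and Cadm1 at −0.18 ± 0.16. The adjusted p values of these 8 genes lay between 0.724 and 0.991. The bounds for Xcr1 in bulk, −0.99 and 0.95, leave room for a change of nearly 1 log2 unit either way.

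Leukocyte content was uneven in bulk WT. The pan-leukocyte sum was 1015 CPM in WT 3 and 1297 CPM in WT 5, against 588 to 594 CPM in the other 3, and 660.5 to 1281 CPM in bulk IL33KO. Without both of these WT libraries 2174 genes were called, among them Batf3 (log2 1.54, edgeR adjusted p = 0.0223) and Cadm1 (−0.41, edgeR adjusted p = 0.0328). The WT libraries then left all lay below every bulk IL33KO library in pan-leukocyte sum. WT 5 and WT 3 also held the highest Batf3 (7.28 and 3.88 CPM) and the lowest Cadm1 (65.8 and 94.1 CPM) of bulk WT. This fit therefore cannot separate host genotype from leukocyte content, and no conclusion on genotype is drawn from its calls. Limma voom with sample quality weights, which also weighs libraries unequally, called 3371 genes, among them Batf3 (1.15, adjusted p = 0.0127), Irf8 (0.55, 0.0334), Naaa (0.52, 0.0120) and Flt3 (0.92, 0.0257). Without WT 5 alone, 19 genes and 0 members were called. With the pan-leukocyte score of each library as a covariate, 0 genes and so 0 members were called, as without it.

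**Figure D3:**
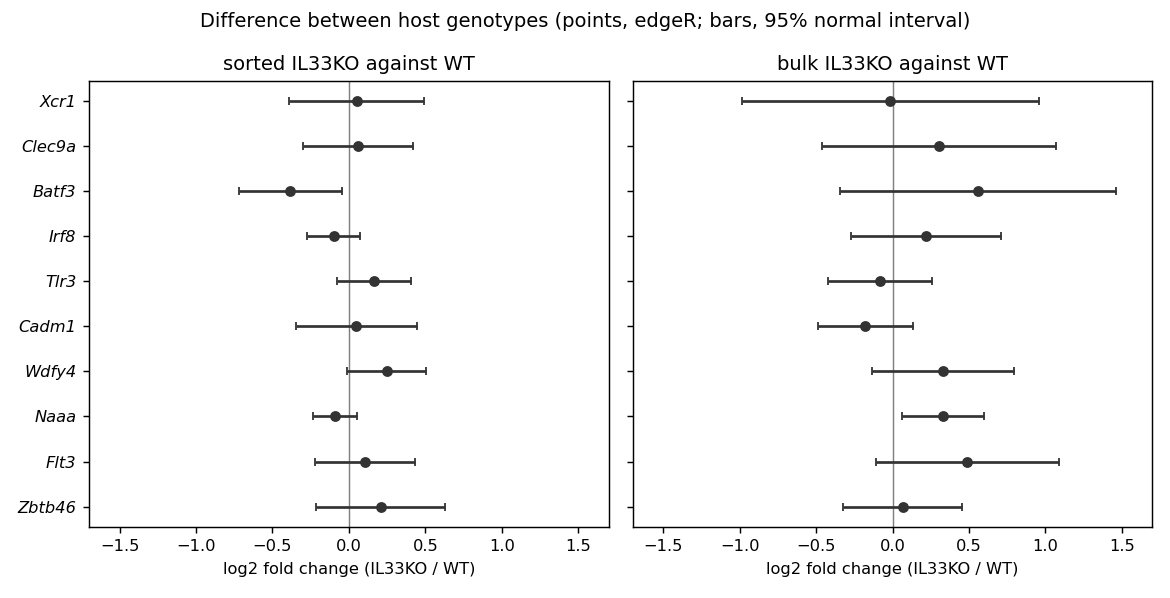
Log2 fold change of IL33KO over WT hosts for each gene in sorted leukocytes (left) and bulk tumour (right), with bars from the SE at 95%. In sorted leukocytes only the bar of Batf3 (−0.38) leaves 0 out and in bulk tumour only that of Naaa (0.33), and neither passed after adjustment.

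Pathway lists in bulk tumour gave 0 called genes as well. Of the lists, 13 of 15 transcription factors (median log2 0.13), 11 of 14 other lineage genes (0.30) and 6 of 6 ligand genes (0.13) were positive. Cross-presentation genes were positive in 6 of 11 (0.0064) and genes of Tlr3 signalling in 2 of 7 (−0.038). Over all genes tested, 51.2% were positive. Il12b, the interleukin-12 subunit these cells secrete, was at 0.80 ± 0.34, Ifi205 at 0.56 ± 0.24 and Btla at 0.92 ± 0.50, all with edgeR adjusted p = 0.724. The Il12b value rests on low levels, with means of 0.273 CPM in bulk WT and 0.481 CPM in bulk IL33KO. The 9 pan-leukocyte genes (median 0.15) and the 9 B cell genes (median 1.20) were also all positive. The part of leukocyte and B cell content in the values of Il12b, Ifi205 and Btla was not tested.

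Whether the genotype difference itself differed between sorted leukocytes and bulk tumour was tested as an interaction over all 20 libraries. It was called for 0 of 10 members, against 0% of 18145 genes, with 2028 genes at an unadjusted p under 0.05 and 2 called by DESeq2. Naaa had the smallest p of the 10 in edgeR, with an interaction of −0.45 ± 0.16 on the log2 scale (edgeR adjusted p = 0.445), and Batf3 the largest size, −0.95 ± 0.51 (adjusted p = 0.463). Irf8 was at −0.34 ± 0.28 and Flt3 at −0.40 ± 0.35. Limma voom with sample quality weights called Batf3 (−1.56, adjusted p = 0.00516), Irf8 (−0.61, 0.0270) and Naaa (−0.64, 0.00644), together with 3406 genes in all. The opposite signs of Batf3 in sorted (−0.38) and bulk (0.56) libraries were thus not established as a difference by edgeR.

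Library by library, the ratio of Batf3 to Xcr1 was uneven in bulk tumour. A Dixon outlier test of the CPM values, which sets the gap at either end of a group against its range, gave 0 flags over 40 sets of gene and group. The ratio itself was not tested. Bulk IL33KO 3 had the lowest Xcr1 (0.609 CPM, 39 counts) and Clec9a (0.750 CPM, 48 counts) of all libraries, and the highest Batf3 of its group (5.89 CPM). Bulk WT 5 had the lowest Xcr1 of the WT group (1.15 CPM) and the highest Batf3 of any bulk library (7.28 CPM), with Clec9a at 2.61 CPM, inside the range of its group. The counts of Batf3 per count of Xcr1 were 9.67 in bulk IL33KO 3 and 6.34 in bulk WT 5, which rest on 39 and 89 counts of Xcr1. In the other 8 bulk libraries they ran from 0.247 to 2.02, and in the 10 sorted libraries from 0.982 to 2.17.

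These are the same bulk libraries whose acinar sums were high, 1493 and 8501 CPM, and their islet gene sums were 523 and 332 CPM, against 0.550 to 138 CPM in the others. The mature dendritic cell list, 10 genes of migratory cells, was at 331 and 325 CPM in them against 179 to 307 CPM in the others. Fscn1, Cacnb3 and Il4i1 had the largest means of this list in bulk IL33KO (77.5, 69.4 and 58.8 CPM), against 5.38 CPM for Ccr7. Cacnb3 was lower in sorted IL33KO libraries (27.1 CPM), so the bulk sum is not a measure of mature dendritic cells alone. Whether pancreatic tissue, other dendritic cells or another source carried the Batf3 of these libraries was not tested. In sorted IL33KO 3, which had the highest acinar sum of all, Batf3 was instead the lowest of the sorted libraries (12.7 CPM) and its ratio to Xcr1 was 0.982.

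**Figure D4:**
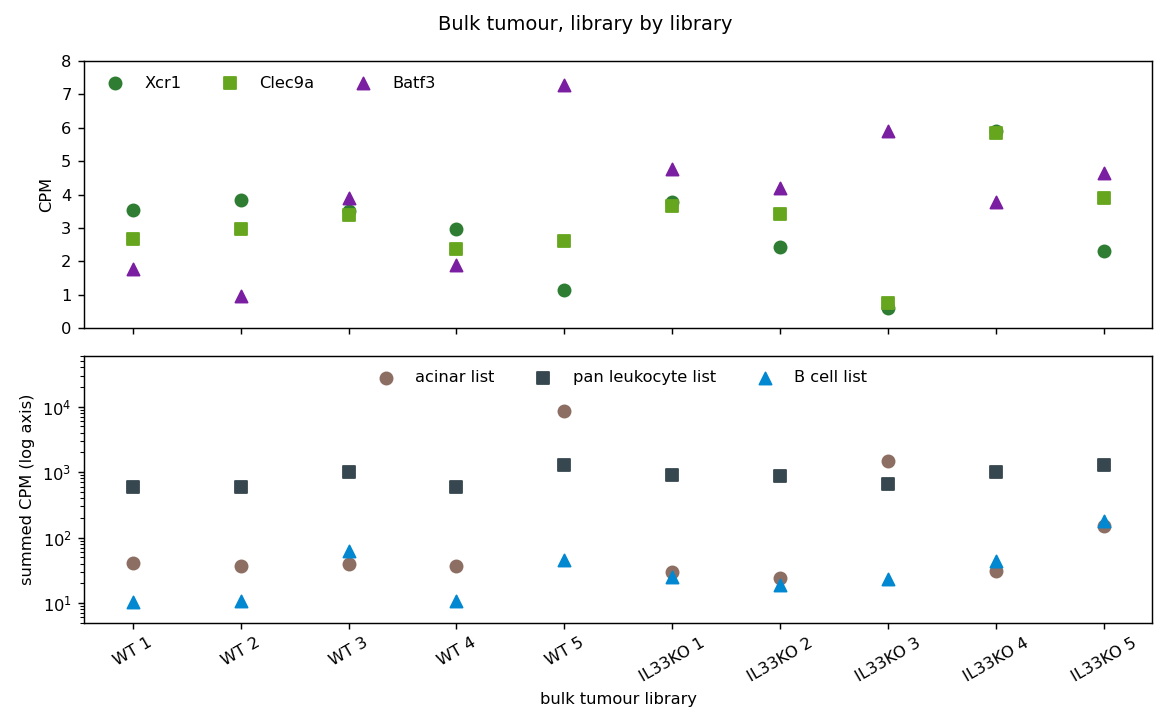
Bulk tumour libraries one by one, with Xcr1, Clec9a and Batf3 in CPM (upper panel, linear axis from 0) and the summed CPM of the acinar, pan-leukocyte and B cell lists (lower panel, log axis). WT 5 and IL33KO 3 combine Batf3 at 7.28 and 5.89 CPM with Xcr1 at 1.15 and 0.609 CPM, and have the 2 highest acinar sums.

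Within the 10 sorted libraries, the other 8 members were compared with the mean log2 CPM of Xcr1 and Clec9a, the most restricted pair. Xcr1 and Clec9a themselves had a Pearson r of 0.47, given as a description. Cadm1 had the highest Pearson r (r = 0.80, permutation p = 0.00513, adjusted over 8 relations 0.0400; rho = 0.75, permutation p = 0.0177, adjusted 0.0709), and Zbtb46 the highest Spearman rho (r = 0.77, permutation p = 0.0100, adjusted 0.0400; rho = 0.81, permutation p = 0.00716, adjusted 0.0573). For Batf3 r was 0.67 (permutation p = 0.0334, adjusted 0.0892) and rho 0.70 (permutation p = 0.0302, adjusted 0.0805). So 2 of 8 relations passed by Pearson's r and 0 by Spearman's rho. The epithelial list sum of the sorted libraries ran from 895 to 2339 CPM, and the endothelial list sum from 106 to 190 CPM. Relative to the pan-leukocyte genes, both Cadm1 and Zbtb46 were lower in sorted than in bulk libraries. The part of non-leukocyte cells in the values of these genes was not tested.

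The sorted WT 3 and IL33KO 5 libraries lay farthest from the median of the pair. Without them r was 0.65 for Cadm1, 0.71 for Zbtb46 and 0.87 for Batf3, which was then the highest. Centring each gene within genotype gave 0.80 for Cadm1 and 0.81 for Zbtb46 (both adjusted p = 0.0147, permutation test) and raised Batf3 to 0.88 (adjusted p = 0.00776, permutation test). Leaving out 1 library kept r between 0.71 and 0.94 for Cadm1 and between 0.74 and 0.85 for Zbtb46, but with 9 libraries neither passed in 7 of 10 cases, namely without WT 2, 3, 4 or 5 or without IL33KO 1, 3 or 5.

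The remaining 5 members had lower correlations with the pair, and none passed. Flt3 had r = 0.44 (permutation p = 0.205), Tlr3 0.27 (permutation p = 0.450), Irf8 0.24 (permutation p = 0.493), Wdfy4 0.10 (permutation p = 0.779) and Naaa 0.0072 (permutation p = 0.983), with adjusted p from 0.411 to 0.983 and rho from 0.0061 to 0.45. Naaa hardly varied at all in the sorted libraries, with a highest value 1.28 times its lowest, while Xcr1 spanned 2.15-fold and Clec9a 2.21-fold. Tlr3 turned from 0.27 to −0.35 without IL33KO 5, so its sign rests on that library.

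**Figure D5:**
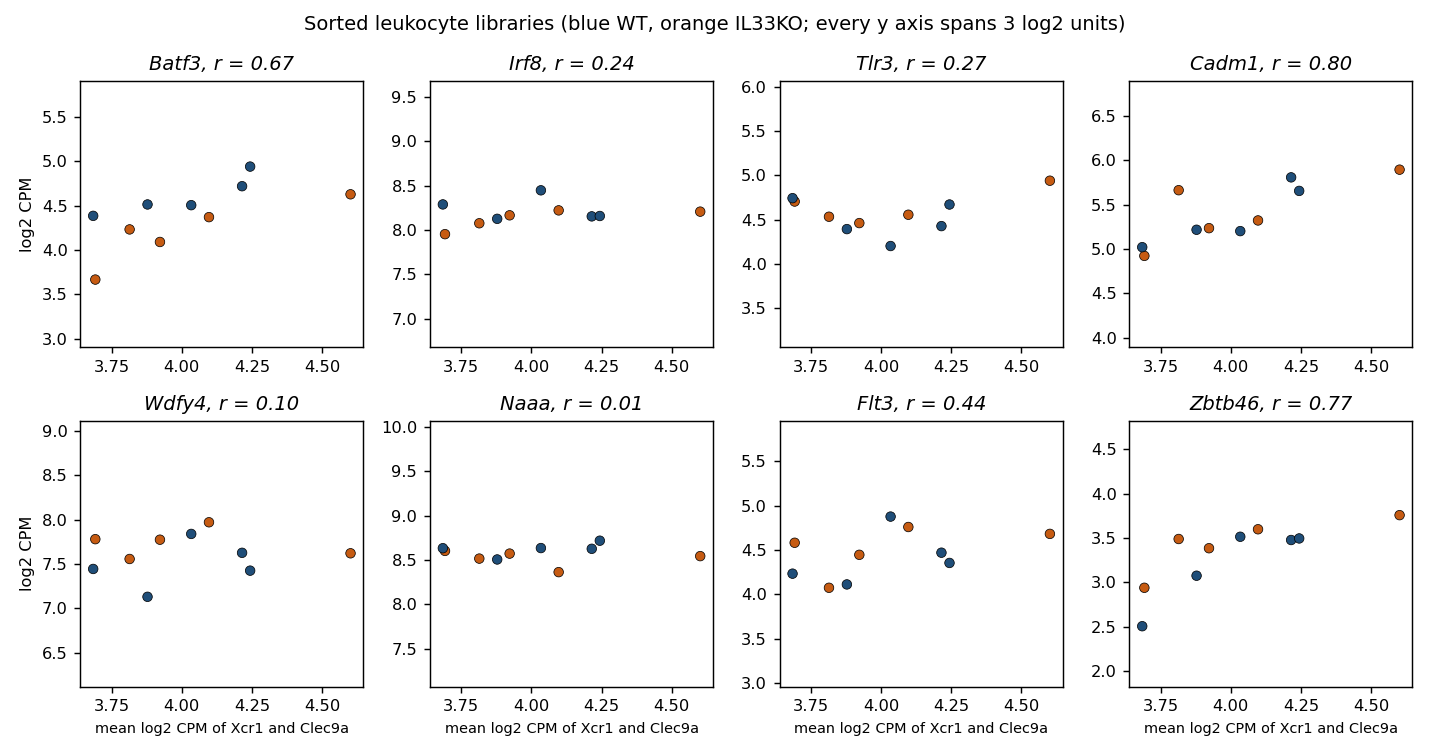
Log2 CPM of 8 genes against the mean log2 CPM of Xcr1 and Clec9a in the 10 sorted libraries (blue WT, orange IL33KO). Every vertical axis spans the same width in log2 units, and r is Pearson's. Cadm1, Zbtb46 and Batf3 rise with the pair, and Naaa and Irf8 stay nearly level.

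Ranked over 13883 genes that averaged 1 CPM or more over sorted libraries, the gene closest to the pair by Pearson's r was one without an established name, and ranks 2 to 6 were held by Zfp692 (0.94), Adamts10 (0.94), Srrt (0.92), Ankrd16 (0.90) and Gtf2ird2 (0.90), and 504 genes exceeded 0.7. Against that background Cadm1 ranked 145, Zbtb46 205 and Batf3 641, while Xcr1 and Clec9a, which form the pair, ranked 9 and 102. Of the other lineage genes Tlr11 was the closest, with r = 0.82 and rank 100, followed by Pianp (0.74, rank 347). Sept3, Il12b, Snx22, Itgae, Clnk, Ppt1 and Hepacam2 lay between 0.53 and 0.15. Negative values were held by Btla (−0.011), Gcsam (−0.15), Ifi205 (−0.45), Ly75 (−0.46) and Cd24a (−0.79). All these values share the 10 libraries and their depth.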

How the data were processed

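RNA was measured in 20 libraries. The deposited table holds raw read counts per gene from HTSeq on mm10, per the submitters' processing notes, which also name Picard and DESeq without versions. Aligner and strand setting: not given in the sources used here. A second, scaled table was not used. The members and gene lists were chosen with earlier results of these data known. All 10 members are named in every comparison, with list genes of known role; 18 lists beside the members were used.

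The 5 summary lines of the table, 26.1% to 40.5% of its totals, were left out of library sizes. CPM used TMM factors over all 20 libraries, and log2 CPM a prior count of 2. Each comparison used edgeR 4.0.16 (R 4.3.3) with filterByExpr and Benjamini-Hochberg adjustment at 0.05, two-sided. Standard errors were derived from the F statistic. DESeq2 1.42.0, limma 3.58.1 voom with sample quality weights, RLE scaling, no filter, a pan-leukocyte covariate, a replicate block and leaving out libraries were alternatives. The fits were tested on simulated data. Replicates of a group always differed by more than counting error (chi-square per gene at least 19.6). Correlations used 100000 permutations. Promoter letters are from RefSeq, positions and exon lengths from GENCODE.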

Additional observations from a re-analysis of the deposited data

How the results depend on the processing

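The calls of all 10 members between sorted and bulk libraries were kept in both hosts under every alternative that was run. Counts of genes called moved more. In sorted leukocytes the 2 genes became 476 with DESeq2, 400 with limma voom, 17 with the pan-leukocyte covariate, 1 with the replicate block and 1 to 3 with 1 library left out. In bulk tumour 0 genes became 52 with DESeq2, 3371 with limma voom (4 members) and 0 to 19 with 1 library left out. Without WT 3 and WT 5, the leukocyte-rich WT libraries, they became 2174 (2 members). For the interaction, 0 genes became 2 with DESeq2, 3406 with limma voom (3 members), 1 with RLE scaling and 0 to 27 with 1 library left out. Bulk WT 5 was the library left out at 19 and 27. The causes were not tested. Pairing by replicate number was not settled by the data. Deviations of same-numbered WT and IL33KO libraries had r from −0.19 to 0.34 in sorted leukocytes and from −0.12 to 0.59 in bulk tumour. The same-numbered library was the closest partner for 3 of 5 sorted and 2 of 5 bulk WT libraries. Between sorted and bulk libraries r ran from −0.15 to 0.17 in WT and from −0.26 to 0.30 in IL33KO hosts, with 1 of 5 closest in each. The replicate block changed no call of a member.

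The signs that turned belong to small differences. In sorted leukocytes limma voom gave −0.11 for Xcr1 and −0.027 for Cadm1, and the covariate gave −0.061 for Xcr1, −0.030 for Clec9a and −0.028 for Cadm1. Without WT 3 and IL33KO 3 Xcr1 was at −0.024. Leaving out 1 sorted library gave −0.090 to 0.16 for Xcr1, −0.14 to 0.17 for Clec9a and −0.086 to 0.16 for Cadm1. In bulk tumour the covariate gave 0.090 for Xcr1, and leaving out 1 library gave −0.41 to 0.24 for Xcr1, −0.19 to 0.023 for Tlr3 and −0.027 to 0.21 for Zbtb46. The interaction with limma voom was −0.11 for Xcr1 and −0.0087 for Zbtb46, and with 1 library left out −0.23 to 0.43 for Xcr1, −0.29 to 0.057 for Wdfy4 and −0.032 to 0.22 for Zbtb46. Relative to Ptprc alone Wdfy4 in IL33KO hosts was at −0.14, and Batf3 relative to the pan-leukocyte list in WT ran from −0.41 to 0.036.

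Of the correlations with Xcr1 and Clec9a, 0 to 2 passed with 1 library left out, and fewer libraries make the test weaker. With 1 left out, r ran from −0.0049 to 0.42 for Irf8, from −0.35 to 0.46 for Tlr3, from −0.031 to 0.22 for Wdfy4 and from −0.17 to 0.12 for Naaa. Among the members, depth limits Xcr1 and Clec9a in bulk IL33KO 3 the most, with 39 and 48 counts. Il12b, a list gene, lay lower in bulk tumour, at 0.194 to 0.477 CPM in WT and 0.219 to 0.604 CPM in IL33KO.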

Other observations

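Marker lists of the other dendritic cells are given beside the type 1 genes, with 0 genes called in either genotype comparison by edgeR. In sorted leukocytes 5 of 6 genes of type 2 dendritic cells were negative in IL33KO against WT hosts (median log2 −0.21), while 8 of 10 genes of mature migratory dendritic cells (median 0.12) and 7 of 8 genes of plasmacytoid dendritic cells (0.14) were positive. In bulk tumour 5 of 5 tested type 2 genes (0.34), 9 of 10 mature genes (0.39) and 6 of 8 plasmacytoid genes (0.23) were positive. The plasmacytoid sum was highest in the acinar-rich libraries, at 454 CPM in sorted IL33KO 3 and 199 CPM in bulk WT 5. Its gene Klk1 reached 326 CPM in sorted IL33KO and 136 CPM in bulk WT, and the part of acinar tissue in this list was not tested. Over all genes tested, 53.7% were positive in sorted leukocytes and 51.2% in bulk tumour. Sorted against bulk, the type 2 list had 6 of 6 genes higher in WT hosts (median 3.90) and the mature list 6 of 10 higher and 1 lower (1.74).

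For other cells in sorted leukocytes, the genotype medians were −0.061 for 10 T and natural killer cell genes, −0.18 for 5 neutrophil genes, −0.038 for the pan-leukocyte genes and 0.69 for 9 B cell genes. They were 0.30 for endothelial, 0.048 for epithelial, 0.026 for fibroblast, 2.27 for acinar and 1.40 for islet genes. In bulk tumour the medians were 0.13, −0.10, 0.15 and 1.20 for the leukocyte lists in the same order, 0.23 for macrophages, and 0.34, −0.083, 0.96, −2.09 and 0.38 for the tissue lists in the same order. None of these lists had a gene called in edgeR, and their summed levels overlapped between genotypes in sorted leukocytes for every list except macrophages, type 2 dendritic cells, signalling from the Tlr3 receptor and the factors around Batf3 and Irf8, which were all lower in the libraries labelled IL33KO. Such sums follow their most abundant genes. Unc93b1 had means of 949 CPM in sorted WT and 705 CPM in sorted IL33KO, Junb 2387 and 1491 CPM, and Sirpa 850 and 717 CPM. Gene by gene, 3 of 7 Tlr3 signalling genes, 5 of 15 factors, 1 of 6 type 2 genes and 0 of 9 macrophage genes were positive.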
